A study of Homo sapiens with 16 samples.

Results

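PC-3 H3K27 acetylation after HOXB13 knockdown was followed through all regions of 2 peak lists, one from control cells and one from knockdown cells. The lists hold 50352 regions (control shRNA) and 49632 regions (HOXB13 shRNA), 99984 of the 816313 regions in the 12 peak lists of the series used here. Both groups are PC-3, an established cell line grown from a bone metastasis of a prostate cancer that lacks a working androgen receptor programme. The control group carried the pGIPZ vector with a control short hairpin RNA (shRNA), and the knockdown group an shRNA against HOXB13. Chromatin of both was precipitated with the same H3K27ac antibody lot, per the labels. The labels describe lentiviral infection and its length for LNCaP, the second cell line of the series, and say neither for PC-3. Each group held 1 library, so nothing here measures the spread between cultures, no p-value is given, and every interval covers counting error only. The level of HOXB13 after knockdown was not measured in PC-3 in the lists used here. The lists pair no region with a gene, and no sequence or annotation of their genome build (hg19) was used, so regions are named by position and cell markers could not be read.

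HOXB13 belongs to the homeobox transcription factors and marks cells of prostate origin, where it binds enhancers together with factors such as FOXA1 and, where present, the androgen receptor. H3K27ac is laid down by the acetyltransferases p300 and CBP at active promoters and enhancers and is removed by histone deacetylases, among them HDAC3 in the NCOR and SMRT corepressor complexes. The series asked, by its title, how HOXB13 and HDAC3 shape the epigenome around lipid metabolism. In that setting the PC-3 pair addresses where acetylation differs between cells with and without the HOXB13 shRNA.

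The knockdown library had fewer tags in all but more of them in H3K27ac regions. The control library held 14963261 tags, of which 38.9% lay in called regions. The knockdown library held 13522608 tags, of which 46.2% did. The log2 ratio of these shares was 0.25, while the covered length was nearly the same (120.5 Mb in the control and 122.8 Mb after knockdown). The median region was 1784 bp wide with 30.7 normalized tags in the control, and 1878 bp wide with 37.0 normalized tags after knockdown. A normalized tag count is the number of tags in a region scaled to a library of 10000000 tags. In calling, a window of 1000 bp had to reach 15 tags in the control and 14 after knockdown, which is 10.0 and 10.4 normalized tags.

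Most acetylated regions were found in both libraries, and those found in only 1 were weak and narrow. Of the control regions, 39961 overlapped a knockdown region by at least 1 bp, which is 79.4% (Wilson 95% interval 79.0 to 79.7). The other 10391 (20.6%) were not called after knockdown. In the opposite direction, 9882 of the knockdown regions (19.9%, interval 19.6 to 20.3) had no control region. Regions called in the control alone had a median of 14.0 normalized tags and a width of 1000 bp, against 42.1 tags and 2104 bp for control regions called again. Regions called after knockdown alone had a median of 15.5 tags and 1000 bp, against 51.0 tags and 2195 bp. Among the regions called in the control alone, 81.8% held fewer than 30 tags before scaling, which is 2 times the window threshold, against 20.8% of those called again. Together the control-only regions carried 4.30% of the tags of their list, and the knockdown-only regions 3.81% of theirs.

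Strong regions were almost all called in both libraries. Of the control regions with at least 100 normalized tags, 9081 were called again and 0 were not. Of the knockdown regions at that level, 11374 had a control region and 1 did not. That region lies outside the autosomes and X, on which the strongest region of the knockdown library alone had 98.4. The share not called after knockdown was 61.4% for the weakest of 10 equal groups of control regions, 14.2% in the fifth, 1.03% in the seventh and 0% in the strongest pair of groups. The groups of knockdown regions gave nearly the same series, with 60.8% new in the weakest, 13.2% in the fifth and 1.05% in the seventh. Many of these regions lay close to acetylation in the other library: 64.4% of the control-only and 55.6% of the knockdown-only regions had a region of the other list within 10 kb, and 28.4% and 24.5% within 2 kb.

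**Figure D1:**
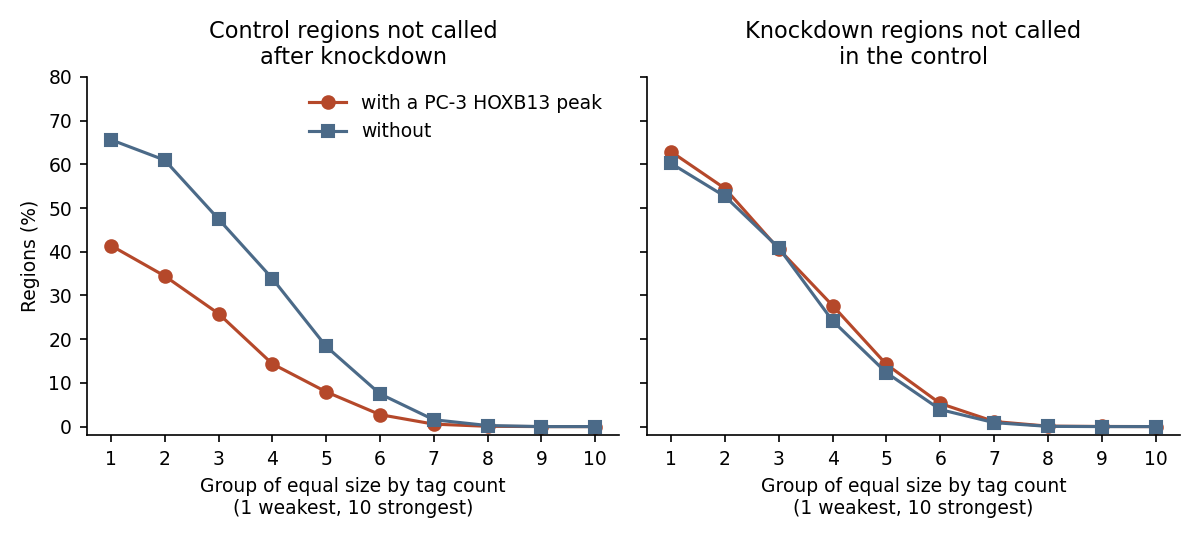
Share of regions (y axis, percent) called in 1 library but not the other, in 10 groups of equal size by normalized tag count (x axis), for control regions (left) and knockdown regions (right), with (red circles) and without (blue squares) a PC-3 HOXB13 peak. In the weakest group of control regions 41.4% with HOXB13 and 65.6% without it were not called after knockdown, whereas the lines for knockdown regions lie close together.

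The strongest regions of 1 library alone, by the rule for named regions, were of modest size. After knockdown alone the strongest was on chromosome 2 at 7645922 to 7651058, with 98.4 normalized tags over 5136 bp and no HOXB13 peak. The next lay on chromosome 7 at 125130149 to 125133888 (83.6 tags) over a HOXB13 peak of 31.5 normalized tags. Others were on chromosome 10 at 118732686 to 118737767 (82.1 tags), on chromosome X at 138905246 to 138909918 (79.1 tags) and on chromosome 18 at 28667681 to 28672657 (72.5 tags). The last of these held a HOXB13 peak of 40.5 normalized tags. Of these 5 regions 4 held a PC-3 HOXB13 peak, as did 31.1% of all loci called after knockdown only, most of them weaker. Among all knockdown regions, 61.7% of those with 74.0 to 115.4 normalized tags held one, and 55.5% of those with 51.0 to 74.0. In the control alone, the strongest were on chromosome 1 at 16954698 to 16959904 and on chromosome 20 at 45935695 to 45941194, each with 76.9 tags. The next were on chromosome 10 at 75089593 to 75093295 (76.2 tags) and on chromosome 17 at 46131946 to 46134657 (74.2 tags) and 57771789 to 57775510 (69.5 tags). Of these 5, the 2 on chromosome 17 held a HOXB13 peak, as did 15.1% of all loci called in the control only. Among all control regions with 59.5 to 90.9 normalized tags, 58.7% held one.

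Regions of the lists vary in width, and a domain called whole in one library may be split in the other. Regions linked by overlaps were therefore joined into loci, and tags and base pairs were summed per locus in each library. This gave 58010 loci, of which 37737 had regions in both libraries, 10391 in the control only and 9882 after knockdown only. In 91.6% of the shared loci each library had exactly 1 region.

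At shared loci the knockdown library carried slightly more acetylation, by about as much as its share of tags in regions was higher. The median locus held 44.8 normalized tags in control cells, against 54.0 with the HOXB13 shRNA. The median log2 ratio of knockdown to control was 0.27, with the 5th percentile at −0.73 and the 95th at 1.18. This median lies close to the log2 ratio of 0.25 between the shares of tags in regions. A general rise in acetylation and a better-enriched library cannot be told apart with 1 library a group. At 3185 loci (8.44%) the log2 ratio was at least 1, and at 945 (2.5%) it was at most −1. Counted from the median instead of from 0, by a centring that itself sets the balance of the directions, the shares were 3.72% and 5.01%. The exact 95% interval of the ratio lay above 0 at 36.5% of loci and below 0 at 7.83%.

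The spread narrowed with the strength of the locus. In the weakest of 10 equal groups by mean tag count the median log2 ratio was 0.078, and in the other 9 groups it lay between 0.20 and 0.32. Loci past 2-fold in either direction were most common in the third group, where 16.1% were higher and 6.57% lower. In the strongest group 1.43% were higher and 0.133% lower. Weak loci are held in both lists only when both libraries reached the threshold, which limits the ratio in the weakest group.

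**Figure D2:**
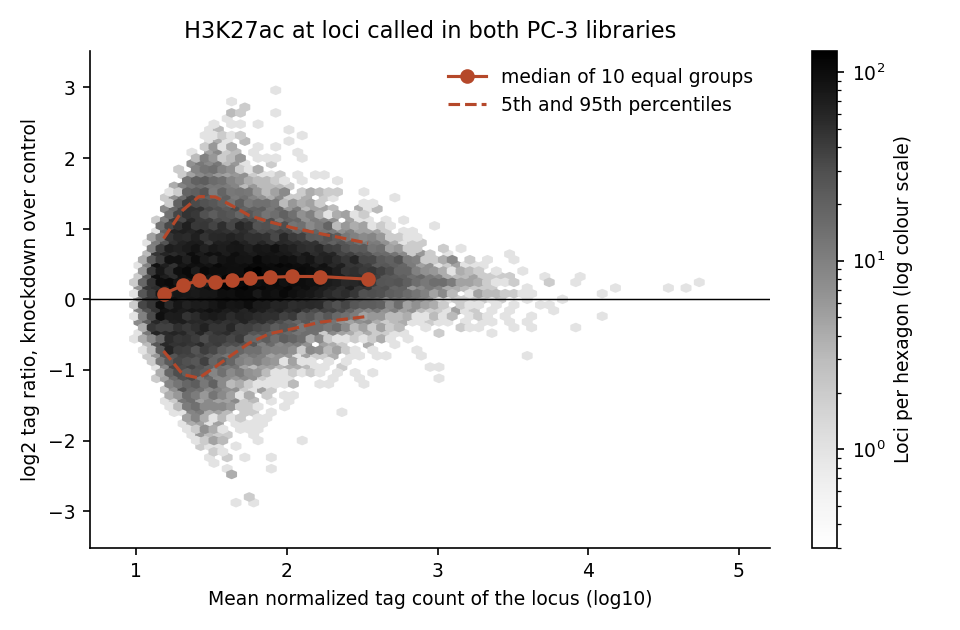
Loci with H3K27ac regions in both PC-3 libraries, as mean normalized tag count (x axis, log10) against the log2 tag ratio of knockdown to control (y axis), shaded by the number of loci. Red points are medians of 10 equal groups, starting at 0.078 for the weakest and ending at 0.28, and dashed lines their 5th and 95th percentiles, which close in from left to right beyond the third group.

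Loci past 2-fold differed both in how far the acetylated region reached and in its density, with width and density about equal at higher loci and width the larger at lower ones. The 3185 higher loci had a median width of 1324 bp in control cells that compares with 2319 bp in knockdown cells, a median log2 width ratio of 0.67. Their median log2 ratio of tag density (tags per bp) was 0.62, against 1.23 for summed tags. At the 945 loci with a log2 ratio of −1 or below the median width went from 2382 bp in the control to 1000 bp after knockdown. The median log2 ratio there was −1.24 for summed tags, −0.95 for width and −0.35 for density. Counted by density, 1.81% of all shared loci were at least 2-fold higher and 42 loci (0.111%) at least 2-fold lower. Of the loci 2-fold higher in tags 416 (13.1%) were also 2-fold higher in density, and of those 2-fold lower 37 (3.92%) were. The median density ratio over all shared loci was 0.20.

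The clearest single rises, ranked by the lower bound of their exact interval, were loci of 13.4 to 42.8 normalized tags in the control, below the median shared locus. After knockdown they held 84.3 to 216.7. On chromosome 9 at 41911251 to 41915813, 18.7 normalized tags over 1560 bp in the control stood against 149.4 over 4562 bp after knockdown. Its log2 ratio was 3.00 (95% interval 2.42 to 3.62) and a HOXB13 peak of 91.8 normalized tags lay in it. On chromosome 5 at 83014385 to 83020700 the counts were 24.7 and 153.8 (log2 ratio 2.64, 2.13 to 3.18), with no HOXB13 peak. On chromosome 20 at 6541516 to 6544357 20 tags before scaling stood against 119 (log2 ratio of normalized tags 2.72, 2.03 to 3.48), also with none. This locus belongs to a row of 5 shared loci within 6449278 to 6573346, all of them 2-fold higher, whose summed counts were 134.4 in the control and 410.4 after knockdown.

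The further rises were also wider after knockdown, and several rises were denser as well. Over all 10 named rises the log2 density ratio ran from 0.32 to 1.92. At the loci on chromosomes 9, 5 and 20 above it was 1.45, 1.03 and 1.21. A locus on chromosome 3 at 185490858 to 185494398 went from 14.7 normalized tags over 1000 bp to 94.7 over 3540 bp (log2 ratio 2.69). One on chromosome X at 40033291 to 40036181 had 13.4 and 85.8 tags (log2 density ratio 1.15), and had no peak in any of the 10 other lists. On chromosome 2 at 112220100 to 112226169 the width went from 1257 to 6069 bp and the log2 ratio of tags was 2.62, but that of density only 0.35. On chromosome 13 at 70822166 to 70829431, over 2 HOXB13 peaks, the counts were 42.8 and 216.7 (log2 ratio 2.34). The locus on chromosome 1 at 91965885 to 91967963 had 33.4 tags over 1513 bp against 173.8 over 2078 bp. Its log2 density ratio of 1.92 was the highest of the 10, beside a log2 width ratio of 0.46. LNCaP ATAC-seq and HDAC3 peaks lay there, and no HOXB13 peak. The remaining pair were on chromosome 12 at 26830130 to 26835985 (20.7 and 115.4 tags) and on chromosome 3 at 48593136 to 48596009 (14.7 and 84.3 tags). Their log2 density ratios were 0.32 and 1.34, beside log2 width ratios of 2.16 and 1.18. All 10 were wider after knockdown, 6 held a PC-3 HOXB13 peak (55.2% of all shared loci did), and 5 an HDAC3 peak of LNCaP control cells (29.7% of all shared loci did).

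The clearest falls had 92.2 to 343.5 normalized tags in the control and 13.3 to 113.9 after knockdown. Ranking by the ratio of summed tags favours small control regions at rises and large ones at falls, so this contrast follows from the choice of loci. On chromosome 10 at 79557138 to 79564488 the control had 104.9 normalized tags over 7288 bp and the knockdown library 14.1 over 1293 bp (log2 ratio −2.90, 95% interval −3.67 to −2.21). On the same chromosome the counts were 98.2 and 14.1 at 65235061 to 65242257 (log2 ratio −2.80), and 199.8 and 48.8 at 68541431 to 68549172 (log2 ratio −2.03). The log2 ratios of density at the first pair of these loci were −0.40 and 0.047, against log2 width ratios of −2.49 and −2.85. Their control densities, 14.4 and 13.6 normalized tags per kb, already lay near the calling limit.

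Another 3 of the 10 falls were neighbours on chromosome 1. They lay at 171497299 to 171504128 (102.3 and 28.1 tags), 171544789 to 171552300 (141.0 and 26.6) and 171555659 to 171561225 (100.2 and 25.1). The 8 shared loci between the first and the last of them summed to 532.7 normalized tags in control cells and 222.5 in knockdown cells, at a log2 ratio of −1.26. Falls past 2-fold in density as well were found on chromosome 17 at 955110 to 957450 (92.2 and 13.3 tags, log2 density ratio −1.93), on chromosome 3 at 195071583 to 195075090 (92.9 and 25.2, density −1.32) and on chromosome 1 at 236260025 to 236261544 (343.5 and 113.9, density −1.36). The last is a compact, strong region of 1517 bp in the control with a peak in all 10 other lists. The fall on chromosome 9 at 11930244 to 11935549 (135.7 and 28.8 tags) completes the 10. All 10 were narrower after knockdown, 5 held a PC-3 HOXB13 peak and 1 an HDAC3 peak of LNCaP control cells, beside the same 55.2% and 29.7% of all shared loci.

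The loci with most tags differed little. The locus with the highest count in the list lay on chromosome 8 at 134673437 to 134836961, where the control library had 53662.1 normalized tags and the knockdown library 62924.2 (log2 ratio 0.23, 95% interval 0.22 to 0.24). The next, at 131467373 to 131870829 on the same chromosome, had 40774.5 and 45863.2 tags (log2 ratio 0.17), as 1 region in the control and 5 after knockdown. Another 2 loci on chromosome 8 followed, with 33643.1 and 37740.5 tags and with 14009.7 and 15513.3 tags. These 4 domains held 8, 19, 10 and 6 HOXB13 peaks. Their tag density was 101 to 328 tags per kb in the control, whereas the median locus of 2173 bp had 44.8 tags. PC-3 is known to carry extra copies of part of the long arm of chromosome 8, and copy number was not measured here. Chromosome 8 held 10.6% of the tags in regions in the control and 9.91% after knockdown. The locus with the fifth highest count, on chromosome 1 at 121477989 to 121485922, went the opposite way (13344.7 and 11317.3 tags, log2 ratio −0.24). Its control density was 1687 tags per kb, far above that of the 4 domains. It had a peak in all 10 other lists, with 11178.8 normalized tags in the PC-3 HOXB13 list. Whether the signal at this locus depends on the antibody was not tested, so it is not read as acetylation or HOXB13 binding. Over the 378 loci of the top 1% by mean tag count the median log2 ratio was 0.21, 1 was 2-fold higher and 1 was 2-fold lower.

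The next comparison asked whether acetylation differed more where HOXB13 had been bound. HOXB13 sites were the 70766 peaks of 1 PC-3 library from control shRNA cells, made with a HOXB13 antibody other than the one used in LNCaP (27662169 tags, median peak 12.7 normalized tags). Acetylated regions often held such a peak: 44.2% of the control and 48.1% of the knockdown regions. In turn 34.5% of the HOXB13 peaks lay in a control region and 37.1% in a knockdown region, and 60.1% lay in neither. With each region divided into 3 equal parts, HOXB13 peaks in the central part made up 49.0% in the control (interval 48.4 to 49.6) and 51.6% after knockdown (51.0 to 52.2). An even spread over the 3 parts would put 1 in 3 there. These intervals count each pair of region and peak on its own, although 1 wide region can hold several peaks.

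HOXB13-bound regions were lost less often than others, and by a smaller margin also within groups of similar strength. Of the control regions with HOXB13, 7.06% were not called after knockdown, against 31.4% of those without it. As retention the difference was 24.3 percentage points (Newcombe 95% interval 23.70 to 24.97). Bound regions were also stronger, with a median of 53.5 against 21.4 normalized tags, and standardised over 10 groups of tag count the difference was 6.60 points. In the weakest group 41.4% of bound and 65.6% of unbound regions were not called again. The raw contrast was not particular to HOXB13. A PC-3 HOXB13 peak lay at 55.2% of shared and 15.1% of control-only loci. For peaks of LNCaP control cells these shares were 29.7% and 4.32% (HDAC3), 30.3% and 3.69% (ATAC-seq) and 24.9% and 2.72% (HDAC1). Among knockdown regions, 12.9% of those with HOXB13 and 26.4% of those without were new, a difference of −13.5 points (−14.2 to −12.8). Standardised for strength this difference turned to 0.840 points.

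Among loci called in only 1 library, those over HOXB13 sites were mostly called after knockdown. A PC-3 HOXB13 peak lay at 3076 loci acetylated after knockdown only and at 1573 acetylated in the control only. That is 66.2% after knockdown (Wilson 95% interval 64.8 to 67.5) against 43.6% for loci without HOXB13 (42.8 to 44.3) and 48.7% for all loci of 1 library. Seen from the HOXB13 peaks, 3823 lay in a region after knockdown only and 1973 in the control only, a ratio of 1.94. Most of these peaks, 81.5% and 79.5%, lay at loci called in 1 library only. The others lay in stretches that a shared locus covered in 1 library but not the other, 708 after knockdown and 405 in the control. HOXB13 peaks acetylated after knockdown only had a median of 15.2 normalized tags, those acetylated in the control only 13.7, in both 16.6 and in neither 11.2.

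Shares above 50% were also found at several, but not all, kinds of peak in LNCaP. LNCaP is an androgen-sensitive prostate cancer line, and its lists describe another cell line. Of the loci called in 1 PC-3 H3K27ac library, 67.4% (64.9 to 69.8) of those with an HDAC3 peak of LNCaP control cells were called after knockdown. For ATAC-seq peaks, which mark open chromatin, the share was 66.1% (63.3 to 68.8), and for HDAC1 peaks 55.5% (51.6 to 59.3). LNCaP HOXB13 peaks of control cells gave 62.1% (60.2 to 63.9), and those called in LNCaP after knockdown 48.2% (43.5 to 52.8). Loci with no peak in any of the 10 other lists leaned the other way, with 41.7% (40.8 to 42.6) after knockdown. The intervals for PC-3 HOXB13, LNCaP HDAC3 and LNCaP ATAC-seq overlap, and that for HDAC1 lies below all 3. Differences between the lists were not tested.

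**Figure D3:**
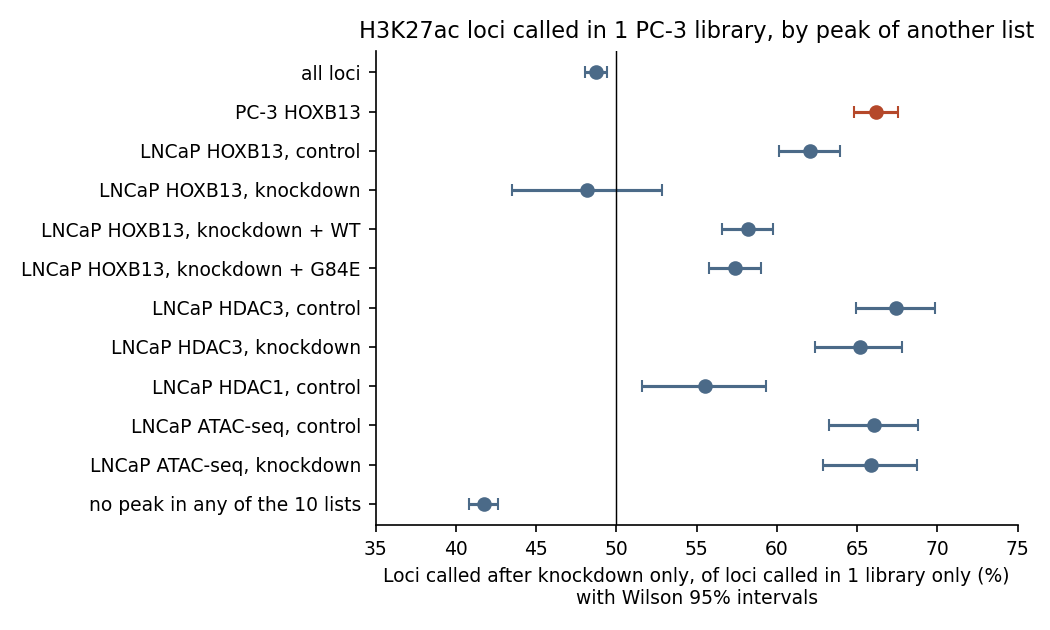
Loci acetylated in 1 PC-3 library only, split by whether a peak of another list lies in them. Points give the share called after knockdown (x axis, percent) with Wilson 95% intervals, and the line at 50% marks equal numbers in both libraries. PC-3 HOXB13 (66.2%), LNCaP HDAC3 in control cells (67.4%) and LNCaP ATAC-seq in control cells (66.1%) lie together, and loci without any peak at 41.7%.

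HOXB13 and the LNCaP marks were then separated. Loci with a PC-3 HOXB13 peak but no ATAC-seq, HDAC3 or HDAC1 peak of LNCaP control cells numbered 2494 after knockdown only and 1345 in the control only (65.0% after knockdown, interval 63.4 to 66.5). Loci with both kinds of peak gave 71.9% (68.7 to 74.8), and those with a LNCaP mark but no PC-3 HOXB13 peak 58.7% (56.0 to 61.3). With neither kind the share was 42.2% (41.4 to 43.0). HOXB13 sites common to PC-3 and LNCaP gave 70.05% (67.6 to 72.4), and sites found in PC-3 only 64.5% (62.8 to 66.1).

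At loci called in both libraries, those with HOXB13 were higher after knockdown by a small margin. The 20833 shared loci with a HOXB13 peak held a median of 60.1 normalized tags (control) and 75.4 (knockdown), and their median log2 ratio was 0.31. The 16904 without one had 32.7 and 37.7 tags and a median log2 ratio of 0.20. The difference of the medians was 0.11, and 0.088 when standardised over 10 groups of mean tag count. Relative to the median of all shared loci, the medians were 0.046 with HOXB13 and −0.067 without it. As tag density the medians were 0.23 and 0.15, and the standardised difference 0.031.

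Loci past 2-fold were divided by HOXB13 in both directions. Of the loci with HOXB13 8.80% had a log2 ratio of 1 or above, against 7.998% without and 8.44% of all. A log2 ratio of −1 or below was found at 1.57% with HOXB13 and 3.66% without, against 2.5% of all. With centred ratios these were 3.96% and 3.43% for higher loci and 3.30% and 7.12% for lower ones. Loci without HOXB13 were weaker, and loci past 2-fold are more common among weak ones. Standardised over the 10 groups of mean tag count, an alternative chosen after seeing the data, the share of higher loci was 2.14 percentage points larger with HOXB13 (0.80 before), and the difference for lower loci was −1.02 points (−2.09 before). By density, 1.79% of loci with HOXB13 and 1.83% of those without were 2-fold higher, against 1.81% of all, and 0.0864% and 0.142% were 2-fold lower, against 0.111%.

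**Figure D4:**
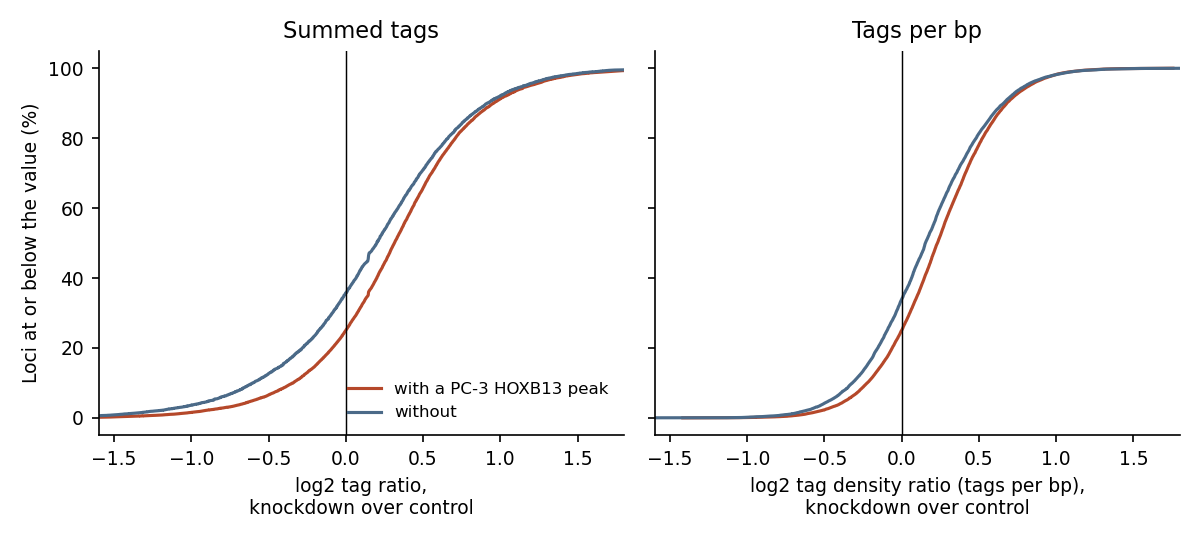
Cumulative share of shared loci (y axis, percent) by the log2 ratio of knockdown to control (x axis), for summed tags (left) and tags per bp (right), with (red) and without (blue) a PC-3 HOXB13 peak. The red line lies to the right over most of the range, with medians of 0.31 against 0.20 for tags and 0.23 against 0.15 for density, and the lines close up at the upper end.

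The margin was spread unevenly over the strength of the acetylation. Among 10 groups from weakest to strongest, it was 0.079 in the first, 0.10 in the second and 0.23 in the third (0.41 with HOXB13 and 0.18 without). The margin lay between 0.064 and 0.12 in the fourth to eighth, and was 0.040 in the ninth and 0.023 in the strongest group. In the strongest group the density medians were equal within rounding (0.28 for both). It also varied with HOXB13 itself. By the tag count of their strongest HOXB13 peak, these loci formed 5 groups of equal size. Their median log2 ratios were 0.30, 0.29, 0.32, 0.32 and 0.34 from weakest to strongest. Standardised for strength they lay 0.070, 0.064, 0.089, 0.092 and 0.13 above loci without HOXB13. Loci 2-fold higher made up 7.85% of the weakest and 10.2% of the strongest HOXB13 group, and loci 2-fold lower 1.97% and 1.22%. Loci with 1 HOXB13 peak had a median of 0.31, those with 2 had 0.34, and the 233 with 3 or more had 0.25.

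Loci with LNCaP marks again gave similar values. The median log2 ratio was 0.35 at shared loci with an HDAC3 peak of LNCaP control cells, 0.34 with an ATAC-seq peak and 0.33 with an HDAC1 peak. Standardised for strength these loci lay 0.10, 0.084 and 0.055 above the others, beside 0.088 for PC-3 HOXB13. With HOXB13 and at least 1 of the 3 LNCaP marks the median was 0.36, with HOXB13 alone 0.28, with a LNCaP mark alone 0.29, and with neither 0.14. These groups differ in strength. Standardised for it, their differences from all other shared loci were 0.098, 0.026, 0.015 and −0.15 in the same order. Whether a difference in enrichment between the libraries has a part in these values was not tested.

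The median log2 ratio differed between chromosomes, with chromosomes 10 and 8 at the low end and X at the high end. The median log2 ratio was 0.17 on chromosome 10, 0.19 on chromosome 8 and 0.20 on chromosome 20, and 0.38 on chromosome X. The other chromosomes lay between 0.23 and 0.33. Chromosome 10 also had the highest share of shared loci 2-fold lower (4.59%, or 93 of 2024), and chromosome X the highest share 2-fold higher (11.8%). The share of control regions not called after knockdown ranged from 13.6% on chromosome 22 to 26.1% on chromosome 14, with 25.8% on chromosome 10.

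Lower loci were more frequent in windows that held many regions, several of them on chromosome 10. Windows of 2 Mb with at least 200 regions of both lists together, a limit set after the values were seen, numbered 23, of which 6 were on chromosome 10 and 5 on chromosome 12. In them 30.0% of control regions were not called after knockdown, against 19.96% elsewhere, while 17.5% and 20.1% of the knockdown regions were new. For each control-only locus there were 0.521 knockdown-only loci in the crowded windows and 1.00 elsewhere. The median log2 ratio at shared loci was 0.10 in the crowded windows and 0.28 elsewhere, and 6.70% against 2.21% of loci were 2-fold lower. By density, which calling keeps from falling far at weak regions, 1 locus (0.0493%) in the crowded windows and 38 (0.107%) elsewhere were 2-fold lower. The most crowded window, 76 to 78 Mb on chromosome 10, held 299 control and 259 knockdown regions, of which 96 and 38 had no partner. Its median log2 ratio was −0.14 for tags and 0.00045 for density. Without the crowded windows chromosome 10 had a median of 0.26 and 2.48% of loci 2-fold lower.

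**Figure D5:**
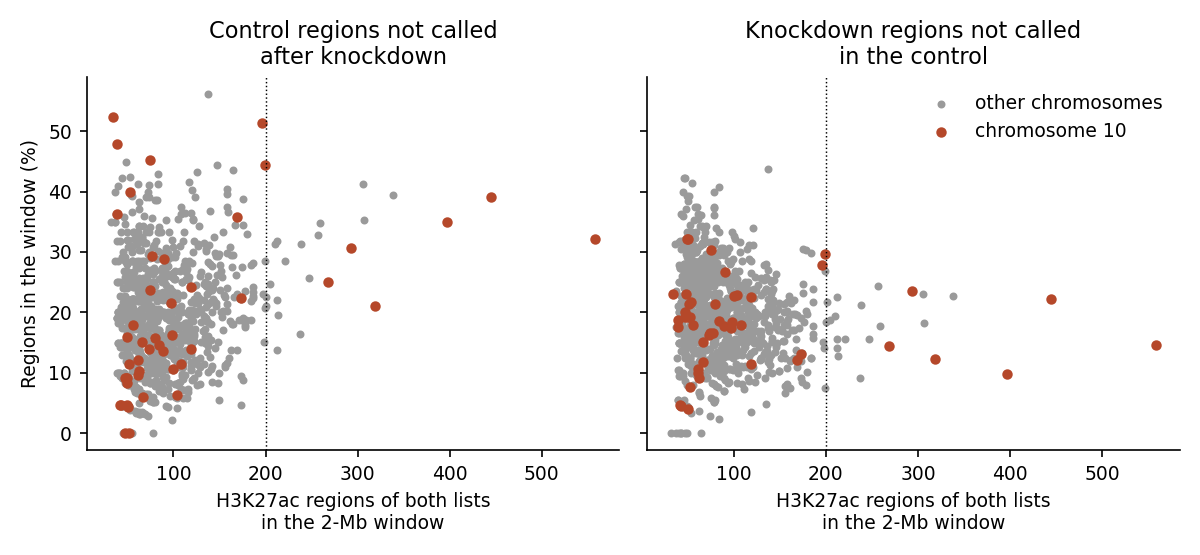
Each point is a 2-Mb window with at least 20 control regions (986 windows), by its number of H3K27ac regions in both lists (x axis) and the share of its control regions not called after knockdown (left) or of its knockdown regions not called in the control (right, both in percent). The dotted line marks 200 regions, and chromosome 10 is red. To the right of it the left panel reaches 41.3% and the right panel 24.4%, and to the left of it, where windows hold fewer regions, both shares spread more widely and some are higher.

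Loci past 2-fold in the same direction sometimes lay close together, often with other shared loci between them. Whether they did so more often than the clustering of regions alone would give was not tested. Rows of at least 3 loci past 2-fold in the same direction, each within 100 kb of the last, numbered 24 for lower loci, with 112 of the 945. Of these rows 12 touched a crowded window. For higher loci there were 123 rows, with 419 of the 3185, of which 5 touched one. The crowded windows held 2030 of the 37737 shared loci, 136 of the lower loci (14.4%) and 94 of the higher ones. Rows need loci that lie close together, which crowded windows favour. The longest row of lower loci lay on chromosome 12 at 29323009 to 29497240, where 11 of 28 shared loci were 2-fold lower. The summed tags of this stretch were nevertheless 3011.3 in the control and 3183.4 after knockdown. On chromosome 8 at 139279513 to 139516559, 10 of 37 shared loci were 2-fold lower, none of the 37 held a HOXB13 peak, and the sums were 2419.8 and 1851.3. The longest row of higher loci was on chromosome 1 at 161469319 to 161707845, with 7 of 19 shared loci 2-fold higher and sums of 1571.8 and 2910.8 (log2 ratio 0.89). On chromosome X at 16141772 to 16258809, 5 of 6 shared loci were 2-fold higher, with sums of 199.1 and 506.6, and 4 of the 6 held a HOXB13 peak.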

How the data were processed

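H3K27ac ChIP-seq peak lists of PC-3 cells were compared between a control shRNA and a HOXB13 shRNA library, and the PC-3 HOXB13 list and 9 LNCaP lists were used for overlap. The submitters' processing notes name Bowtie2, HOMER 4.2 and hg19. H3K27ac regions were called by the authors in each library, per the file headers, with findPeaks in histone style (windows of 1000 bp, Poisson p of 0.001, stitched, no input library). The PC-3 HOXB13 peaks were called in factor style at 1 fixed width, per the file headers. The deposited signal is the normalized tag count, per 10000000 tags. The deposited findPeaks score served only to rank regions. The deposited fold, clonal ratio, focus fraction and local p-value were not used. Whole tags were recovered from the signal and the library total, and 100% of values were whole within 0.1 tags.

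Regions overlapping by 1 bp or more were linked into loci, and tags and bp were summed. Intervals are Wilson (shares), Newcombe (differences) and Clopper-Pearson (tag ratios), all at 95%. Overlap and intervals were checked on simulated lists. Loci are named by rule: the 10 highest lower bounds and the 10 lowest upper bounds of the log2 ratio among shared loci with at least the median mean tag count, the 5 strongest of each library alone, and the 5 with most control tags, on autosomes and X. Rows of loci and crowded windows are described beside them. Comparisons and lists were chosen with earlier results of these data known. Fixed gene lists and sequences could not be placed on hg19 here and were not analysed. Alternatives were overlap, strength, density, centring, chromosomes, HOXB13 list and crowded windows. Python 3.11.15, numpy 2.4.6, pandas 2.3.3, scipy 1.17.1 and matplotlib 3.10.9 were used.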

Additional observations from a re-analysis of the deposited data

How the results depend on the processing

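With 1 library a group no alternative measures the spread between cultures. No paired analysis was possible because each group held 1 library. Over 10 results and 45 alternatives, 15 values stayed within the counting interval of the main value, 29 moved beyond it without a change of sign and 1 reversed. A share is never below 0, so results that are shares could move but not reverse. Loci 2-fold higher outnumbered those 2-fold lower before centring (8.44% against 2.5%) but not after it (3.72% against 5.01%), and both values count as moved. The reversed one was the share gained with less without HOXB13, −13.5 points, which was 0.840 points standardised for strength. It was −11.2 with the better-scoring 50% of HOXB13 peaks and −12.2 without regions in 8 or more other lists. The retention difference of 24.3 points was 6.60 standardised, 20.8 with the better-scoring HOXB13 peaks and 23.5 without the crowded windows, a setting added after the data were seen. The difference of median log2 ratios, 0.11, was 0.078 per bp, 0.088 standardised and 0.095 with the better-scoring HOXB13 peaks. Retention of control regions was 77.3% with overlap of 50% of the shorter region, 61.9% in the better-scoring 50% of both lists, 81.1% with a common floor of tags and 80.03% without crowded windows. The gained share was 21.9%, 41.7% and 20.3% under the first 3 of these. The median log2 ratio was 0.20 per bp, 0.31 at loci above the median tag count and 0.28 without crowded windows. Loci 2-fold higher made up 1.81% per bp, 7.05% at loci of 1 region in each list that overlap by 50% of the longer, 5.48% above the median and 3.72% centred. Loci 2-fold lower made up 0.111%, 1.38%, 0.641% and 5.01%, and 2.27% without crowded windows. Regions of 1 library alone had a median of 21 tags beside window thresholds of 15 (control) and 14 (knockdown), and no alternative matched the depth of the libraries.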
